A study of Mus musculus with 19 samples.

Results

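The genes Id1, Id2, Id3, Id4, Msx1, Msx2, Skil, Ski and Bambi were followed in the mouse vomeronasal organ (VNO) after conditional loss of Smad4. They are known as direct targets or as feedback regulators of SMAD signalling. These 9 genes were taken by name out of 35596 genes with a quantified transcript, by a rule that uses no measured value, although earlier results of these data were known when the list was made. RNA of the whole dissected organ, from female mice on postnatal day 21, was sequenced in 19 libraries. Of these, 18 fall into 6 groups of 3. In the AP-2εCre line, which carries Cre in the Tfap2e gene and recombines in immature basal vomeronasal sensory neurons (VSNs), the groups were Smad4 flox/flox controls without Cre (flox; their genotype label reads wild type), AP-2εCre +/- controls (Het) and AP-2εCre +/- mice with Smad4 flox/flox (cKO). The OMPCre line, with Cre in the Omp gene and recombination in mature apical and basal VSNs, had the same 3 kinds of group. The fourth AP2e Het library has a genotype label that also names the Smad4 flox allele and stayed out of every comparison. Each cKO group was compared with its 6 controls, the flox and Het libraries together, to ask how the genes stood where Smad4 could be lost from VSNs. Both Cre drivers act in VSNs, whereas the RNA came from the whole organ, which also holds bone, vessels, glia and supporting epithelium. In such bulk RNA, fewer cells of a type and less RNA per cell cannot be told apart.

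In the signalling pathway behind this list, a bone morphogenetic protein (BMP), activin or TGF-β ligand binds a pair of serine/threonine kinase receptors, which phosphorylate receptor-regulated SMADs. These join Smad4, the shared mediator, and enter the nucleus to bind DNA. Id1 to Id4 encode helix-loop-helix proteins without a DNA-binding basic region, which capture E proteins and thereby hold back proneural factors. Msx1 and Msx2 encode homeodomain repressors of BMP-responsive tissues. Ski and Skil (SnoN) encode co-repressors that bind SMAD complexes, and Bambi encodes a pseudoreceptor without a kinase domain that dampens receptor signalling.

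All 9 genes were detected in every library, with 188 estimated counts as the lowest value of any gene in any of the 18 libraries. In no comparison did any of the 9 pass the test. With edgeR's quasi-likelihood test and an adjusted p below 0.05, 0 of 9 were called in the AP-2εCre cKO against its controls, where 0.0378% of 18495 genes were called, and 0 of 9 in the OMPCre cKO, where the share was 0.0% of 18623 genes. At an unadjusted p below 0.05 the counts were 0 of 9 beside 10.2% of all genes in the AP-2εCre line, and 1 of 9 (Id4) beside 3.95% in the OMPCre line. DESeq2 called 0 of 9 in either line, beside 1.67% of the same genes in the AP-2εCre line and 0.226% in the OMPCre line. The members' log2 fold changes (cKO over controls) ran from -0.25 to 0.20 in the AP-2εCre line, with a median of -0.06 against 0.00 over all genes tested. In the OMPCre line they ran from -0.38 to 0.22, with a median of -0.11.

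**Figure D1:**
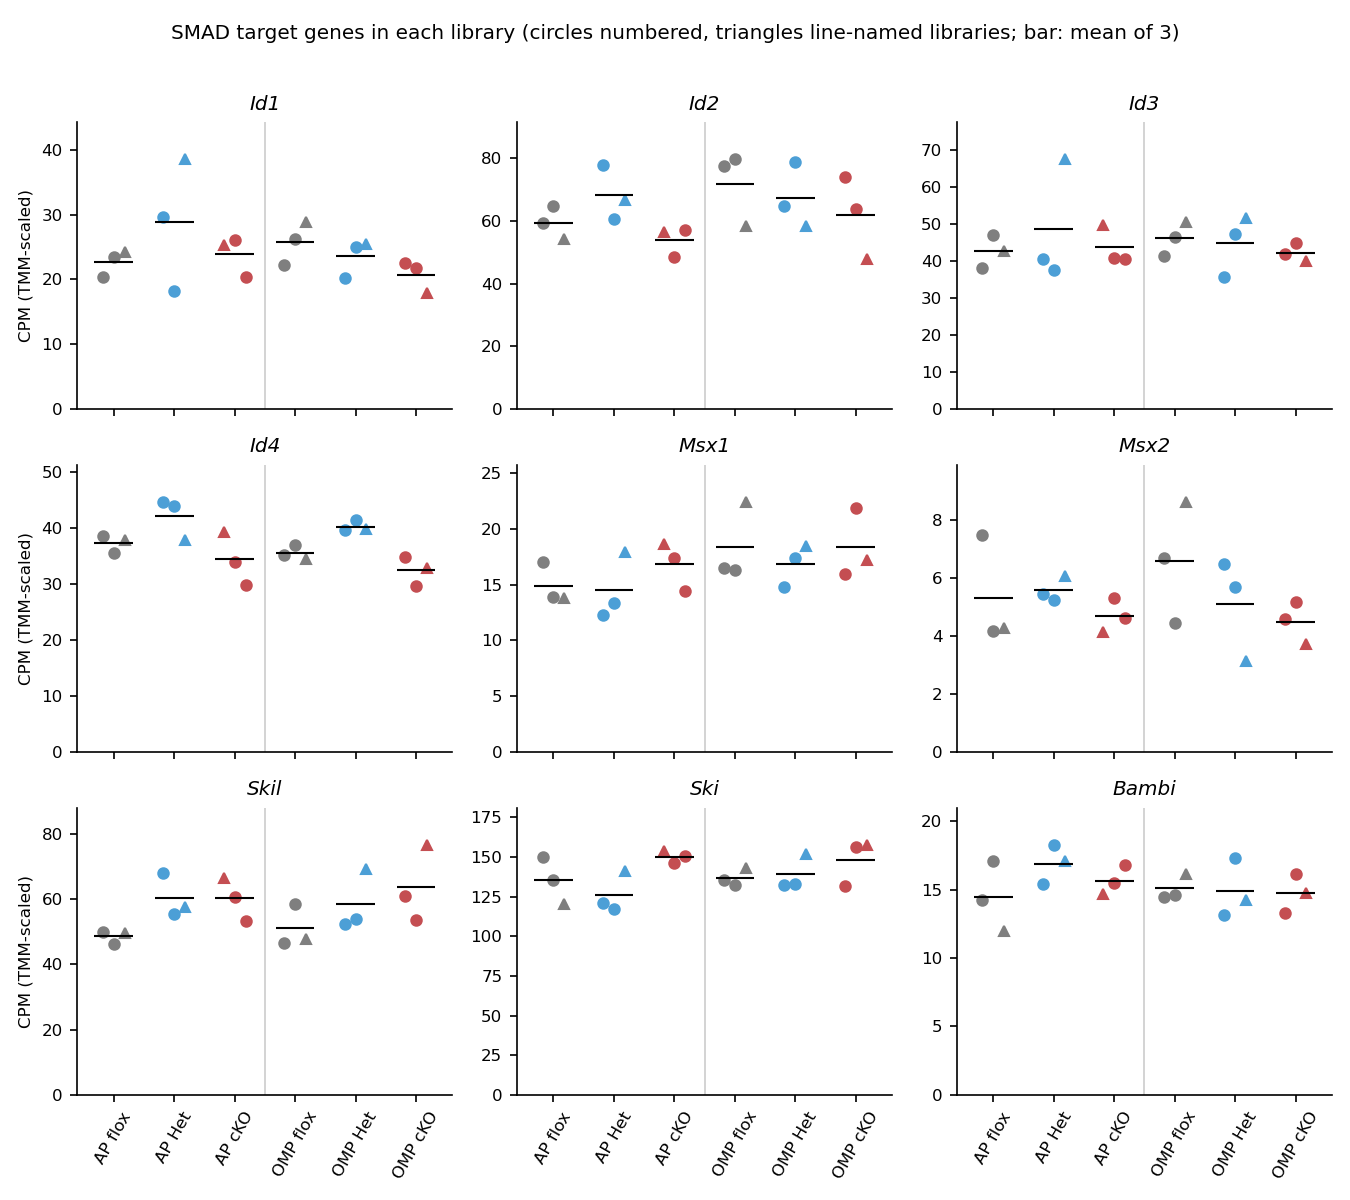
Counts per 1000000 counts (CPM, TMM-scaled) of each of the 9 genes in each of the 18 libraries, by group. Each point is 1 library and each bar the mean of 3. The ranges of the cKO libraries and of their 6 controls overlapped for every gene in both lines.

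The targeted gene was checked first. Smad4 stood at 61.9, 62.4 and 54.6 CPM in the OMPCre cKO libraries, below all 6 controls of that line, which ran from 64.9 to 83.8 CPM. The difference was -0.34 on the log2(CPM + 1) scale (exact permutation test, two-sided, p = 0.012, the smallest that 84 splits allow), although its adjusted p in edgeR was 0.909. All cKO libraries lay below all controls for 0.95% of genes in that line, and above them for 1.41%. In the AP-2εCre line Smad4 ran from 33.8 to 66.7 CPM in the cKO and from 39.5 to 80.8 CPM in the controls, so the groups overlapped (exact permutation p = 0.87). There the shares of genes lying wholly below and wholly above the controls were 2.77% and 2.29%. These values count reads over the whole transcript, and reads of the floxed exon alone were not analysed here. The genes that carry Cre were lower in libraries labelled with Cre. Tfap2e stood at 5.42 to 8.88 CPM in the AP-2εCre Het libraries, 10.0 to 12.5 CPM in the cKO libraries and 14.0 to 16.6 CPM in the flox libraries of that line. Omp stood at 224 to 248 CPM in the OMPCre Het libraries and 238 to 288 CPM in the cKO libraries, against 306 to 475 CPM in the flox libraries.

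Total estimated counts ran from 43385516 to 134042284 a library (median 63096714). Every group held 2 libraries with numbered names and 1 named for its line, which are here taken as 2 library series, since the names differ and nothing else about them is stated. Defining markers of mature VSNs were present throughout, with Omp at 224 to 550 CPM, Gnai2 of apical VSNs at 318 to 477 CPM and Gnao1 of basal VSNs at 135 to 246 CPM. Mesenchymal markers were abundant too: Col1a1 reached 6786 to 18926 CPM. Normalization mattered in the AP-2εCre line. Scaling by total counts in place of TMM moved the median difference of all genes, cKO minus controls, by 0.13 on the log2 scale, and by -0.02 in the OMPCre line. All member fold changes below are relative to the TMM centre. Libraries of 1 series deviated from their group means together (mean r = 0.092 in the AP-2εCre and 0.183 in the OMPCre line) and those of different series apart (-0.114 and -0.223). The main fits and the permutation tests do not use the series.

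Among the inhibitors of proneural factors, all 4 Id genes had lower fitted means in the cKO than in the controls in both lines, but none passed the test, and with total-count scaling Id1 and Id3 were higher in the AP-2εCre cKO (0.09 and 0.12). Of 18137 genes tested in both lines, 28.8% had a lower mean in both cKO groups and 28.2% a higher one.

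Id4 (ENSMUSG00000021379.2, chr13:48261228-48266026, plus strand, GRCm38) had the lowest p of the 9 genes in the mean of both lines. It is known in neural tissue for keeping progenitors from differentiating. In the AP-2εCre line it stood at 38.7, 35.5 and 37.8 CPM in the flox libraries, at 44.6, 44.0 and 37.9 CPM in the Het libraries and at 39.3, 33.9 and 29.9 CPM in the cKO libraries. The cKO range reached into the controls through replicate 1, while the other 2 cKO libraries lay below all 6 controls. The OMPCre values were 35.2, 37.0 and 34.5 CPM in flox, 39.6, 41.4 and 39.8 CPM in Het and 34.8, 29.7 and 32.9 CPM in cKO, so only 1 of 18 cKO-control pairs had the cKO above. The fold change was -0.21 ± 0.11 (log2, SE; 3 against 6) in the AP-2εCre line, with an adjusted p of 0.558 in edgeR, and -0.22 ± 0.082 in the OMPCre line, with an unadjusted p of 0.022 and an adjusted p of 1.00. Averaged over both lines it was -0.22 (95% confidence interval -0.36 to -0.07), with an unadjusted p of 0.0053 and an adjusted p of 0.317.

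Tested on its own, Id4 differed by -0.22 on the log2(CPM + 1) scale in the OMPCre line (exact permutation p = 0.036, two-sided) and by -0.21 in the mean of both lines (exact permutation p = 0.0041). These are 2 of 4 such tests with p below 0.05 (the others for Ski) among 45 run over the 9 genes, and the means repeat the values of the lines. With total-count scaling the exact permutation p became 0.071 and 0.12, and in the AP-2εCre line the Id4 difference went from -0.21 to -0.05, with the cKO above in 8 of 18 pairs (exact permutation p = 0.73). Leaving out each library in turn gave 0.0013 to 0.023 for the mean and 0.036 to 0.14 for the OMPCre line, where 2 of 9 such tests, each over fewer splits, kept a p below 0.05 and the highest p came without cKO replicate 2. In both lines the difference was smaller against flox than against Het. Id4 lay higher in all 3 OMPCre Het libraries than in all 3 flox libraries, and the share of all genes doing so was not counted. Against the flox libraries alone the Id4 fold change was -0.13 in either line, against the Het libraries alone -0.29 and -0.31. Within the library series, Id4 in the AP-2εCre line differed by -0.34 among the numbered libraries (2 against 4) and by 0.06 among the line-named ones (1 against 2). For the OMPCre libraries they were -0.24 and -0.17. With the series as a term in edgeR the fold changes were -0.21 and -0.22, as without it, and neither passed the adjusted threshold.

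Id2 (ENSMUSG00000020644.9, chr12:25093799-25097140, minus strand) is expressed in many neural and immune lineages. It stood at 59.5, 64.7 and 54.3 CPM in the AP-2εCre flox libraries, at 77.8, 60.6 and 66.6 CPM in Het and at 56.3, 48.5 and 57.0 CPM in cKO. Only 2 of 18 pairs had the cKO above. Its fold change was -0.25 ± 0.11 (log2, SE), with an unadjusted p of 0.052 and an adjusted p of 0.496 in edgeR. On the log2(CPM + 1) scale the difference went from -0.23 to -0.08 with total-count scaling, and 6 of 18 pairs then had the cKO above (exact permutation p = 0.52). In the OMPCre line, where it ran from 48.0 to 74.2 CPM in cKO and from 58.4 to 79.7 CPM in the controls, the fold change was -0.17 ± 0.16. It became -0.01 without cKO replicate 3 and -0.32 without cKO replicate 1.

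Id1 (ENSMUSG00000042745.9, chr2:152736251-152737410, plus strand), a direct BMP target in many cells, varied most among the AP-2εCre Het libraries. There it stood at 29.7, 18.2 and 38.5 CPM, a span that held all 3 flox libraries (20.4 to 24.3 CPM) and all 3 cKO libraries (20.3 to 26.2 CPM). The fold change in that line was -0.11 ± 0.22, and it became 0.07 against the flox libraries alone. The OMPCre cKO libraries held 22.6, 21.7 and 17.9 CPM against 20.2 to 29.0 CPM in the controls, a fold change of -0.25 ± 0.12 with an adjusted p of 1.00 in edgeR. That difference was -0.58 among the line-named libraries (1 against 2) and -0.07 among the numbered ones (2 against 4).

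Id3 (ENSMUSG00000007872.3, chr4:136143497-136145755, plus strand) shared the high library with Id1. In the AP-2εCre Het libraries it stood at 40.5, 37.7 and 67.5 CPM, and all libraries of the other groups lay between 35.7 and 51.6 CPM. Replicate 3 of that Het group was therefore the highest library for Id1 and for Id3. The 8 endothelial markers, of which none was at 0, summed to 243 CPM in that library, within the 218 to 1505 CPM of all 18, and without Pecam1 to 147 CPM, within 123 to 155 CPM. Tie1, an endothelial gene outside that marker list, was also highest there, at 20.97 CPM with the next at 19.9 CPM, but it was picked as the gene most like Id3 over these same libraries and is no independent marker. The part of vessel cells in the Id3 value was not tested. Without that library the Id3 fold change in the AP-2εCre cKO turned from -0.06 ± 0.18 to 0.08 and that of Id1 from -0.11 to 0.04. Id3 differed by -0.11 ± 0.11 in the OMPCre line.

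Stretches from around the annotated RefSeq starts of these genes are shown because they hold the short DNA words that SMAD proteins are known to bind. RefSeq windows (GRCm38.p6) from 250 bases before to 50 bases after the transcription start were found for 6 of the 9 genes: Id2, Id3, Id4, Msx1, Msx2 and Ski. The word GGCGCC, read the same on both strands and bound by SMAD1 and SMAD5, was present once each in the windows of Id2, Id4 and Ski, and 11.9% of 32851 windows of this length held it. The word CAGAC, bound by SMAD3 and SMAD4 and searched on both strands, occurred 2 times in Id3, and in 49.6% of all windows at least once. Neither word occurred in Msx1 or Msx2. All 250 bases before the RefSeq start of Msx2 are exonic in GENCODE, so that window is transcript sequence by that annotation. The words do not overlap each other. They are marked in capitals below, 5′ to 3′ on the strand of the gene, and a match describes letters and not a bound site.
Id2 (chr12:25096254-25096342, minus strand): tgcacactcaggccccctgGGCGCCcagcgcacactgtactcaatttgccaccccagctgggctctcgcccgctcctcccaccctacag
Id3 (chr4:136143643-136143672, plus strand): tgtcctcggcgtCAGACcagcctaaggaag
Id3 (chr4:136143742-136143771, plus strand): ggacccttggcgGTCTGttttgaataaggg
Id4 (chr13:48260866-48261115, plus strand): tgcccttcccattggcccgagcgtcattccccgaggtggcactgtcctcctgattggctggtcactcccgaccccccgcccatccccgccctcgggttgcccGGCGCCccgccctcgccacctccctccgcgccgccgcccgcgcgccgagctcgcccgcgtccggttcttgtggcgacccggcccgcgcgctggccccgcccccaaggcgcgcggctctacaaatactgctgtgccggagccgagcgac
Ski (chr4:155222593-155222785, minus strand): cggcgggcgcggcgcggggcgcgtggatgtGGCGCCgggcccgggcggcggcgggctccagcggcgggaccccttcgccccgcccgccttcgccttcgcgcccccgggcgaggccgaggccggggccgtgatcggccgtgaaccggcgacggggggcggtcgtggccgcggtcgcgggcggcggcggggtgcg
The matches lay 231 bases before the annotated start in Id2, 148 in Id4, 220 in Ski, and 167 and 68 in Id3. GENCODE places both Id3 matches within an exon of a longer transcript. The Id2 match lies within the GENCODE gene, outside its exons, and 161 of the 250 bases before the RefSeq start of Id2 are exonic in GENCODE, so this stretch is gene body by that annotation.

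**Figure D2:**
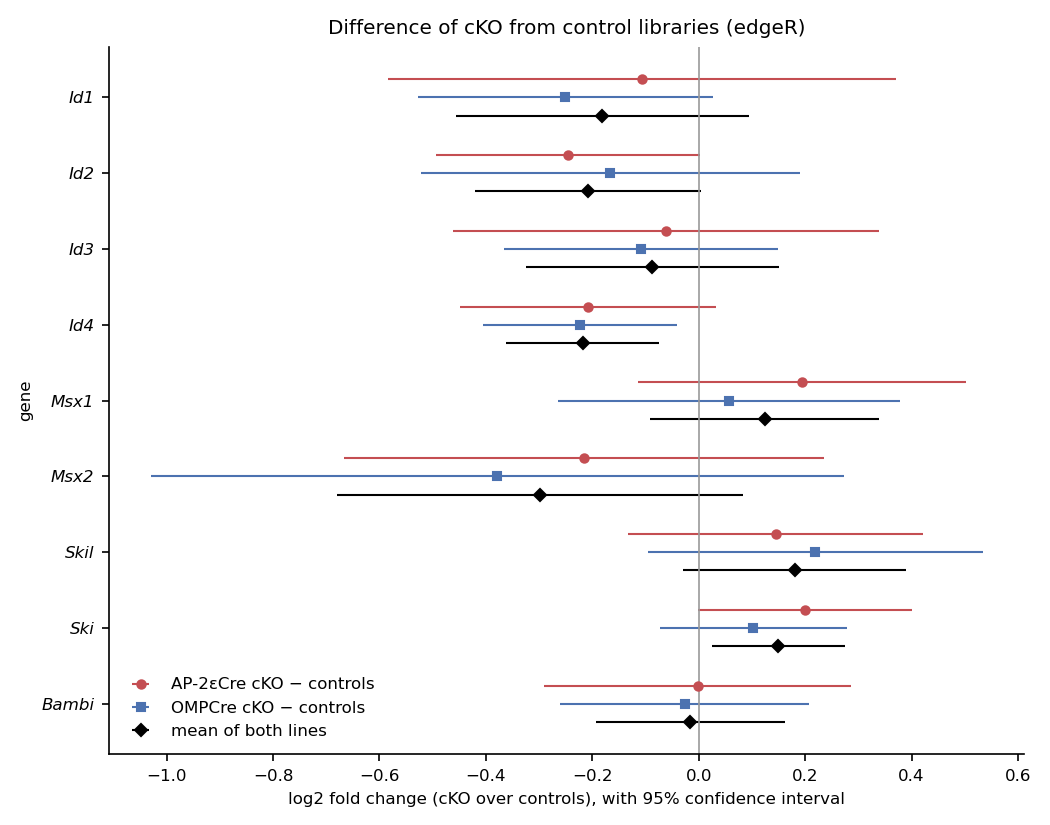
Log2 fold change of cKO over control libraries for each gene, with its 95% confidence interval, in the AP-2εCre line, the OMPCre line and as the mean of both (edgeR). The interval of the mean lies below 0 for Id4 and above 0 for Ski, and no gene passed the adjusted threshold.

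The co-repressors had higher means in the cKO of both lines, without passing the test. Ski (ENSMUSG00000029050.15, chr4:155154075-155222592, minus strand), which recruits repressor complexes to SMADs, stood at 150, 136 and 121 CPM in the AP-2εCre flox libraries, at 121, 117 and 141 CPM in Het and at 154, 146 and 151 CPM in cKO. The cKO values lay close together and 17 of 18 pairs had the cKO above, with flox replicate 1 as the exception. The fold change was 0.20 ± 0.091 (log2, SE; edgeR p = 0.052, adjusted p = 0.496), and the exact permutation p was 0.048. With total-count scaling, which raised the median of all genes too, the 3 cKO libraries lay above all controls (0.36, exact permutation p = 0.012). With TMM scaling 2.29% of genes lay wholly above the controls in this line, and the share with total-count scaling was not counted. Ski ran in the OMPCre line from 132 to 157 CPM in cKO and from 132 to 152 CPM in the controls, with a fold change of 0.10 ± 0.079. The mean over both lines was 0.15 (95% interval 0.02 to 0.27), with an unadjusted p of 0.022 and an adjusted p of 0.451 in edgeR, and an exact permutation p of 0.018 (0.0034 to 0.049 when any 1 library was dropped). In the AP-2εCre line alone that range was 0.036 to 0.18, and 1 of 9 such tests stayed below 0.05. Ski differed by 0.19 among numbered and 0.24 among line-named libraries of the AP-2εCre line, and by 0.10 and 0.09 in the OMPCre line.

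Skil (ENSMUSG00000027660.16, chr3:31095058-31122577, plus strand), a co-repressor that TGF-β signalling is known to induce as feedback, was lowest in the flox groups of both lines. It stood at 49.9, 46.1 and 49.6 CPM in the AP-2εCre flox libraries, at 68.1, 55.5 and 57.4 CPM in Het and at 66.5, 60.7 and 53.3 CPM in cKO. Thus all Het libraries lay above all flox libraries, and neither of these control genotypes deletes Smad4. The share of all genes that separate these control groups in this way was not counted. That Het-to-flox difference was 0.31 ± 0.11 (log2, SE), with an unadjusted p of 0.018 and an adjusted p of 0.820 in edgeR, and an exact permutation p of 0.10, the smallest that 3 against 3 allow. Across the OMPCre line Skil held 46.7, 58.4 and 47.8 CPM in flox, 52.2, 53.8 and 69.3 CPM in Het and 61.0, 53.7 and 76.5 CPM in cKO, and the groups overlapped. The cKO fold change was 0.14 ± 0.13 and 0.22 ± 0.14 in the AP-2εCre and OMPCre lines. In the AP-2εCre line it was 0.30 against the flox libraries alone and 0.00037 against the Het libraries alone. With any 1 library dropped it ran from 0.06 (without cKO replicate 1) to 0.23 (without cKO replicate 3) in that line, and from 0.07 (without cKO replicate 3) to 0.33 (without cKO replicate 2) in the OMPCre line.

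Between the 2 control groups no member was called either. The comparison of Het with flox called 0.0224% of 17827 genes in the AP-2εCre line and 0.0441% of 18124 genes in the OMPCre line, and 0 of 9 members in each by edgeR. DESeq2 called 0 of 9 members too, beside 0.942% and 0.877% of genes. At an unadjusted p below 0.05 the counts were 1 of 9 (Skil) beside 5.18% of genes and 0 of 9 beside 5.54%. Id4 was the nearest in the OMPCre line, at 0.18 ± 0.078 (p = 0.057, adjusted p = 0.876 in edgeR), with an exact permutation p of 0.10.

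Of the homeobox pair, Msx1 (ENSMUSG00000048450.10, chr5:37820485-37824583, minus strand) ran from 14.5 to 18.7 CPM in the AP-2εCre cKO and from 12.3 to 17.97 CPM in its controls, with a fold change of 0.19 ± 0.14. In the OMPCre line it ran from 15.96 to 21.9 CPM in cKO and from 14.8 to 22.4 CPM in the controls (0.06 ± 0.14), and the sign there depended on the series, at 0.20 among numbered and -0.23 among line-named libraries. Msx2 (ENSMUSG00000021469.9, chr13:53466884-53473074, minus strand) was the lowest of the 9 genes, at 3.13 to 8.60 CPM over the 18 libraries. Its fold changes were -0.22 ± 0.20 and -0.38 ± 0.29 (log2, SE), and its OMPCre interval, the widest of the 9 genes in that line, ran from -1.03 to 0.27. With any 1 library dropped, the Msx2 fold change ran from -0.317 to -0.105 in the AP-2εCre line and from -0.507 to -0.24 in the OMPCre line.

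Bambi (ENSMUSG00000024232.2, chr18:3507923-3516404, plus strand) differed least. It held 14.6 to 16.8 CPM in the AP-2εCre cKO against 11.9 to 18.2 CPM in the controls, and 13.3 to 16.2 CPM in the OMPCre cKO against 13.1 to 17.3 CPM. The log2 fold changes were -0.0022 ± 0.13 and -0.03 ± 0.10. With both lines together the interval ran from -0.19 to 0.16.

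With both lines combined, the mean cKO effect called 0.0925% of 19465 genes at the adjusted threshold and 9.37% at an unadjusted p below 0.05, against 0 of 9 and 2 of 9 (Id4 lower, Ski higher) of these genes. The unadjusted count was 1 of 9 without OMPCre cKO replicate 3, beside 1531 of 20006 genes. Without OMPCre Het replicate 3 it was 5 of 9, beside 2076 of 19388 genes. DESeq2 called 0 of 9, beside 1.01% of genes. The difference of the cKO effects between the lines was tested as an interaction. It called 0.0% of all genes, 4.91% at an unadjusted p below 0.05, and 0 of 9 members at either threshold, and DESeq2 called 0.0873% of genes and 0 of 9 members. No member was therefore shown to differ between deletion in immature basal VSNs and deletion in mature VSNs.

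Levels were compared per transcript length, in transcripts per 1000000 transcripts (TPM), over the 18 libraries. Id3 was highest at a mean of 109 TPM (57.1 to 201), followed by Id2 at 52.0, Id1 at 29.998 and Ski at 25.7 TPM. Skil, Id4 and Msx1 stood together at 8.90, 8.71 and 8.45 TPM, and Bambi and Msx2 were lowest at 2.68 and 2.02 TPM. Neighbours whose ranges did not overlap were Ski above Skil and Msx1 above Bambi, the former with the non-coding Ski transcript included. Over protein-coding transcripts alone the means of Ski and Skil were 10.7 and 8.89 TPM. Id3 lay above Id2 and Id2 above Id1 in 18 of 18 libraries. By contrast, Id1 lay above Ski in 14, Skil above Id4 in 7 and Id4 above Msx1 in 10 of 18, so these neighbours did not differ beyond their spread.

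**Figure D3:**
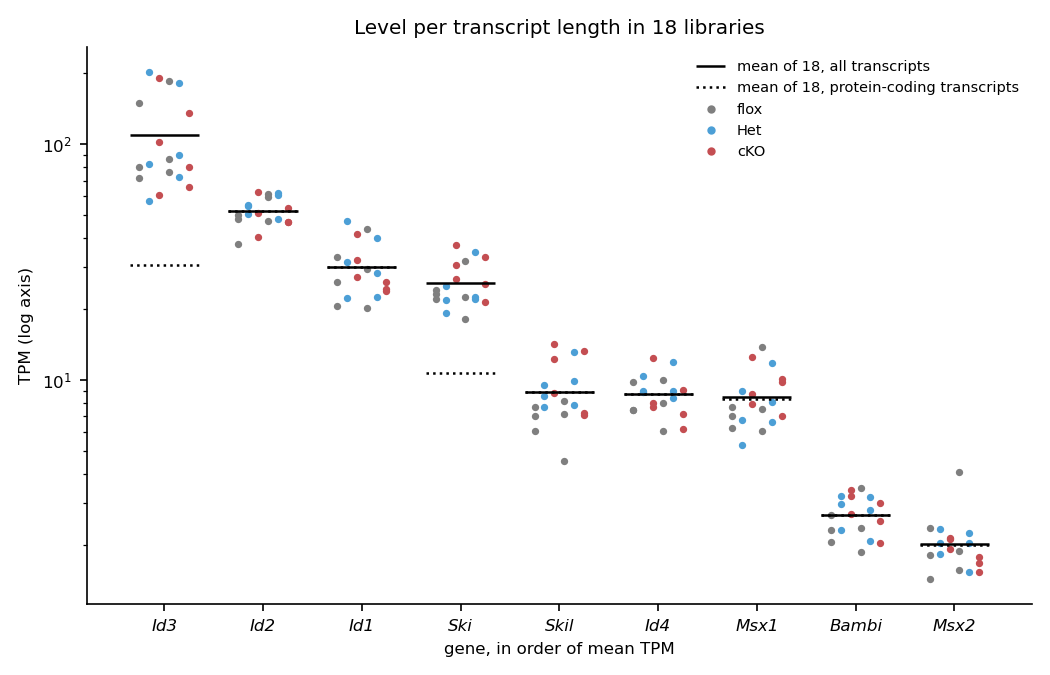
TPM of each gene in the 18 libraries on a log axis, in order of mean TPM, with the solid line the mean over all transcripts and the dotted line the mean over protein-coding transcripts. Id3 falls from 109 to 30.7 TPM and Ski from 25.7 to 10.7 TPM when only protein-coding transcripts are summed.

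The first place of Id3 rested on a short non-coding transcript. Id3-202, a processed transcript of 277 bases, took a median of 5.56% of the Id3 counts but 61.2% of its TPM, because its effective length was set to 34.3 bases. The coding Id3-201 took 81.8% of counts and 30.5% of TPM. Summed over protein-coding transcripts alone, Id2 led at 52.0 TPM, with Id3 at 30.7 and Id1 at 29.998 TPM. The TPM of Id3 also separated the library series. It ran from 135 to 201 TPM in the 6 line-named libraries and from 57.1 to 102 TPM in the 12 numbered ones, while its CPM overlapped between them (40.1 to 67.5 and 35.7 to 47.4).

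Ski likewise drew 54.9% of its counts, as the median library, from the non-coding Ski-203 (40.3% to 69.2%), with 31.9% from Ski-202 and 14.8% from Ski-201. Ski-203 held 56.3%, 54.8% and 55.7% in the flox, Het and cKO groups of the AP-2εCre line, so its share moved little between groups. Skil drew 65.0% from Skil-204, and its second transcript Skil-201 ranged from 0% to 44.3%. The mean Skil-201 share was 41.2%, 37.1% and 13.8% in flox, Het and cKO of the AP-2εCre line but 23.1%, 29.0% and 29.9% in the OMPCre line, values that were not tested and that come from estimated assignment of single reads between transcripts sharing most of their sequence. Pooled over the 18 libraries, Id1, Id2, Msx1 and Msx2 drew 98.1% to 98.8% of counts from a single transcript each, and Id4 and Bambi have no second one. In the lowest library that share was 93.8% for Id1, 83.6% for Id2, 96.3% for Msx1 and 93.8% for Msx2.

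**Figure D4:**
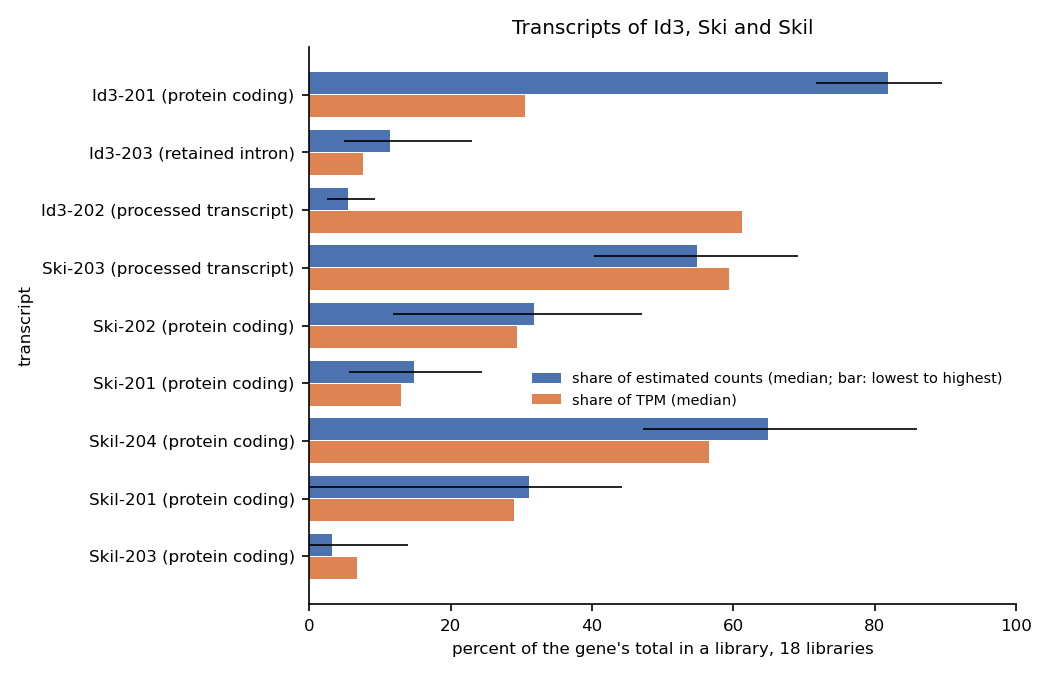
Share of each gene's estimated counts (blue, median with lowest and highest of 18 libraries) and of its TPM (orange, median) held by the transcripts of Id3, Ski and Skil. Id3-202 holds 5.56% of counts and 61.2% of TPM.

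Across the 18 libraries the genes most like each member, by Pearson's r of log2(CPM + 1) among 15838 genes, are given as a description, since libraries share groups, series and depth. Id1 and Id3 were each among the 3 genes most like the other (r = 0.79). The gene most like Id3 was Tie1, which encodes an endothelial receptor kinase (r = 0.86), and Rbm3 came after Id1 (0.79). The gene most like Id1 was Prkch (0.84), and Hes6 came after Id3 (0.79). Id2 was most like Clec2d, Kcnj13 and Mettl9 (0.86, 0.85 and 0.83), and Id4 most like Trim34a, Cpne3 and Cisd2 (0.83, 0.81 and 0.81). Ski had the closest likeness of the list, to Mtss1l (0.91), then Plekho2 (0.87) and Tmem204 (0.86). Skil was most like Hivep2 (0.83), Zfp568 (0.80) and Ccdc88a (0.80). Msx1 was most like Klf16, Pdlim7 and Itpk1 (0.86, 0.85 and 0.85), Msx2 like Tuba4a, Ppp1r13l and Lad1 (0.80, 0.78 and 0.75), and Bambi like Tbcd, Rad51c and Gstcd (0.75, 0.74 and 0.74). Within the list, Id4 and Ski ran opposite to each other (r = -0.61), as did Msx2 and Skil (-0.58), whereas Msx1 and Ski varied in the same direction (0.71). With the group means subtracted, these values were -0.37, -0.60 and 0.72.

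The other genes of the pathway gave no call at the adjusted threshold by edgeR in either cKO comparison. Of 20 further SMAD target and feedback genes, 17 had a higher and 3 a lower mean in the AP-2εCre cKO, with a median of 0.15, while 12 were higher and 8 lower in the OMPCre cKO (median 0.05). The 3 with the highest TPM were Ltbp1, which stores latent TGF-β in the matrix (0.16 ± 0.14 in the AP-2εCre line), the cell cycle inhibitor Cdkn1a (0.21 ± 0.15) and the matrix protein gene Ccn2 (0.69 ± 0.23, adjusted p = 0.360). Ccn2 had an unadjusted p below 0.05 in the AP-2εCre line, as did Pmepa1, an induced inhibitor of receptor signalling (0.35 ± 0.10), which is named after its values were seen. In all, 3 of 20 genes of the list stood at that threshold there, beside 10.2% of all genes. Pmepa1 was the only gene of the list at that threshold in the OMPCre line (0.25 ± 0.083), 1 of 20 beside 3.95% of all genes. Its mean over both lines was 0.30 ± 0.066 (adjusted p = 0.135, edgeR). The 3 genes with a lower mean in the AP-2εCre cKO were Junb (-0.19), Atoh8 (-0.02) and Smurf2 (-0.01). Values for that line in this and the following lists are relative to the TMM centre, and the 0.13 by which total-count scaling shifts the median of all genes there exceeds the distance from 0 of the medians near 0.

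**Figure D5:**
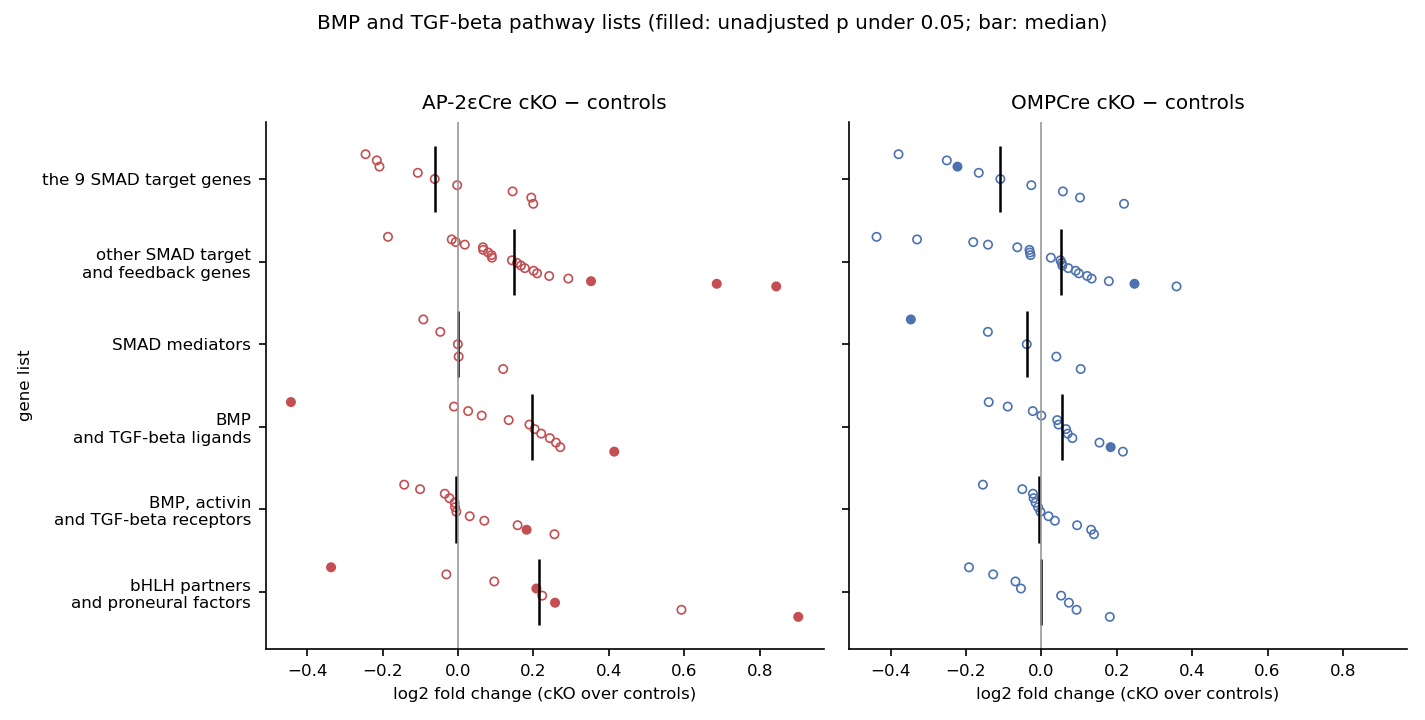
Log2 fold change (cKO over controls) of every gene of the list and of 5 pathway lists, in the AP-2εCre line (left) and the OMPCre line (right). Filled points have an unadjusted p below 0.05 and the bar is each list's median, which lies at 0.15 for the other SMAD target and feedback genes in the AP-2εCre line.

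Genes named in the following lists beyond the 3 most abundant of each were likewise named after their values were seen. Of 12 ligand genes, 10 had a higher mean and 2, Inhbb and Bmp4, a lower one in the AP-2εCre cKO (median 0.20). In the OMPCre cKO 8 were higher and 4, Bmp2, Bmp7, Inhba and Inhbb, lower (median 0.06). Bmp6, the most abundant, differed by 0.20 ± 0.13 and 0.05 ± 0.099, Tgfb1 by 0.41 ± 0.18 and 0.04 ± 0.13, and Gdf10 by 0.22 ± 0.17 and 0.22 ± 0.13. Inhbb, which encodes an activin subunit, differed by -0.44 ± 0.18 in the AP-2εCre cKO (adjusted p = 0.441, edgeR). At an unadjusted p below 0.05 stood 2 of 12 ligand genes in that line, Tgfb1 and Inhbb, beside 10.2% of all genes. In the OMPCre line it was 1 of 12, Tgfb2 (0.18 ± 0.070), beside 3.95% of all genes. Receptor genes had a higher mean in 5 of 12 and a lower one in 7 in either line (median -0.01 in both). Their most abundant genes Eng, Tgfbr2 and Bmpr1a differed by 0.18 ± 0.076, -0.01 ± 0.086 and -0.02 ± 0.093 in the AP-2εCre line. Of the 5 SMAD mediators, Smad1 and Smad3 had a higher and Smad2, Smad4 and Smad5 a lower mean in each line, with Smad3 at 0.12 ± 0.095 and 0.10 ± 0.096 and Smad2 at -0.00044 ± 0.099 and -0.14 ± 0.079.

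The partners that Id proteins bind, and the proneural factors they restrain, had a higher mean in 6 of 8 and a lower one in 2, Hes1 and Hes6, in the AP-2εCre cKO (median 0.22). In the OMPCre cKO 4 were higher (Tcf4, Neurog1, Neurod1 and Hes1) and 4 lower (median -0.00094). Tcf4, Tcf12 and Hes1 were the most abundant. The E-protein gene Tcf4 differed by 0.21 ± 0.088 in the AP-2εCre line (adjusted p = 0.457, edgeR) and by 0.09 ± 0.082 in the OMPCre line, and the related Tcf12 by 0.10 ± 0.085 and -0.13 ± 0.066. Hes1, a Notch effector that represses proneural genes, differed by -0.34 ± 0.15 and 0.05 ± 0.25. Tcf3, another E protein gene, differed by 0.26 ± 0.11, and its unadjusted p was below 0.05 in the interaction of the lines (0.32 ± 0.14, with an adjusted p of 1.00 in edgeR). In the interaction 2 of 8 genes of this list stood below that threshold, beside 4.91% of all genes.

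Summed markers of other cell types also differed in level between groups. In the AP-2εCre cKO all 6 ciliated-cell markers had a lower mean (median -0.49), and their summed level was 355 to 535 CPM against 559 to 724 CPM in flox and 582 to 703 CPM in Het. All 6 immature-neuron markers had a higher mean (median 0.31), summing to 671 to 1003 CPM against 614 to 783 CPM in flox and 561 to 795 CPM in Het. Basal and supporting epithelial markers were lower for 5 of 6, all but Krt8 (median -0.17), at 663 to 839 CPM against 692 to 851 CPM and 648 to 1008 CPM. In the OMPCre cKO the ciliated markers were lower for 5 of 6 (median -0.04, Dnah5 higher) and the immature-neuron markers higher for 4 of 6 (median 0.16, Dcx and Tubb3 lower). The basal and supporting epithelial markers there were 3 higher and 3 lower (median -0.16), with Krt14 at -2.29 ± 1.08 and Krt5 at -1.13 ± 0.62. None of the 6 had an unadjusted p below 0.05 in edgeR. Over all 18 libraries Krt14 ran from 6.60 to 343 CPM and Krt5 from 62.1 to 504 CPM. The sum of the 6 markers was 783 to 885 CPM in the OMPCre cKO, against 813 to 1482 CPM in flox and 647 to 787 CPM in Het. Medians of the AP-2εCre and OMPCre lines were 0.24 and 0.06 for mesenchymal, 0.20 and -0.11 for cartilage and bone, 0.23 and -0.29 for blood, -0.12 and -0.03 for glial, -0.0044 and -0.04 for endothelial and 0.12 and -0.11 for mature VSN markers. The 6 immune markers had medians of 0.16 and 0.03, and their sum was 210 to 213 CPM in the AP-2εCre cKO, above all 6 controls (165 to 197 CPM). Immune and ciliated markers were the lists whose sums did not overlap between cKO and controls, both in that line. Of single genes there, 2.77% lay wholly below and 2.29% wholly above the controls. How often sums of other genes separate in this way was not counted. No marker of any of the 10 lists passed the adjusted threshold in either line, and none of these lists had a marker at 0. The part of these cell types in the differences of the SMAD target and feedback genes was not tested.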

How the data were processed

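RNA from whole vomeronasal organs was made into stranded, polyA-selected libraries (NEXTflex Rapid directional kit) and sequenced as single reads. The authors quantified transcripts with Salmon 0.14.0 against an Ensembl mm10 transcript set, and the submitters' processing notes also name DESeq2 1.22.2. Each deposited table holds, per transcript, an estimated count (NumReads), transcripts per 1000000 (TPM) and the effective length that the authors' quantification used. The transcript set is described as coding sequence, but only 35.5% of its lengths are multiples of 3. Of 116248 transcripts, 116072 matched GENCODE vM21 by identifier (GRCm38) and were summed to 35596 genes, and the 176 others made up no more than 0.0324% of the counts in any library.

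Summed estimated counts were rounded to whole numbers and tested with edgeR 4.0.16 (R 4.3.3): genes were filtered by filterByExpr, scaled by TMM and fitted by quasi-likelihood, with p-values adjusted by Benjamini-Hochberg over all genes tested and a threshold of 0.05. Each line was fitted on its own 9 libraries, and the interaction and the mean of both lines on all 18. Single genes were also tested by exact two-sided permutation of libraries on log2(CPM + 1). DESeq2 1.42.0, other scalings, filters, control groups, terms for replicate number or library series, and leaving out each library were the alternatives, and subsets by series, coding-only TPM and leave-one-out permutation tests were chosen after seeing the data.

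The labels call the replicates biological, and nothing further ties them to animals or litters. One library with conflicting labels was left out. The naming rule took all 9 genes, the 3 genes of highest TPM in each pathway list, the 3 genes most like each member, and Smad4, Tfap2e and Omp. Other pathway and marker genes were named after their values were seen. The members and lists were chosen with earlier results of these data known. Isoform sums depend on how reads were divided among transcripts, and TPM of transcripts shorter than the fragment length depends on the effective length assigned. Some genes of the pathway lists entered the list counts and medians but are not reported here by name.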

Additional observations from a re-analysis of the deposited data

Results flagged for a closer look

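Id3 stood at 67.5 CPM in replicate 3 of the AP-2εCre Het group, apart from the other controls of that line, of which the next highest held 47.1 CPM. The gap was 0.684 of the whole range of the 6 controls, above the critical value of Dixon's test at the 95% level, which chance alone exceeds in about 1 in 20 groups. It was the only one past that value among 18 such sets of controls, 9 genes in 2 lines, about the number that chance gives.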

How the results depend on the processing

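No alternative called any of the 9 genes. By edgeR the genes called in all were 7 for the AP-2εCre cKO, 0 for the OMPCre cKO, 4 and 8 for Het against flox in the AP-2εCre and OMPCre lines, 0 for the difference of the lines and 18 for their mean. DESeq2 called 309, 42, 168, 159, 17 and 196 genes in that order. With a term for library series the counts were 2 for the AP-2εCre cKO, 1 for the OMPCre cKO, 2 for AP-2εCre Het against flox and 31 for the mean. Against flox alone the AP-2εCre cKO gave 24 genes, against Het alone the OMPCre cKO gave 11, and without a filter AP-2εCre Het against flox gave 8. In the numbered series alone, a choice made after seeing the data, the counts were 2 for the AP-2εCre cKO, 0 and 26 for Het against flox in the AP-2εCre and OMPCre lines and 11 for the mean. The cause of these differences was not tested.

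With the replicate number as a block the counts were 2 for the AP-2εCre cKO, 2 for OMPCre Het against flox and 28 for the mean, and no member's call changed. Same-numbered libraries did not deviate together in the AP-2εCre line (mean r = -0.089, lowest -0.332). In the OMPCre line they did, with a mean of 0.253 and a lowest of 0.0229, against a mean of -0.123 between different numbers. There, same-numbered libraries were also of the same series. The main fits and permutation tests do not use the numbers as a pairing.

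Leaving out each library in turn gave 2 to 8 genes for the AP-2εCre cKO, 0 to 2 for the OMPCre cKO, 3 to 28 and 0 to 15 for Het against flox, 0 to 1 for the difference and 8 to 33 for the mean. The AP-2εCre count fell to 2 without flox 2, Het 2, Het 3, cKO 1 or cKO 3 and to 3 without flox 3. The mean gave 33 without AP-2εCre Het 1, 11 without AP-2εCre cKO 3 and 8 without OMPCre cKO 3. The OMPCre cKO gave 2 without flox 2, and the difference 1 without OMPCre flox 1 or cKO 1. AP-2εCre Het against flox gave 17, 28 and 10 without Het 1, 2 and 3, and OMPCre Het against flox 15 without flox 3 and 0 to 2 without any other library.

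Directions turned for some members that had no call. In the AP-2εCre line Id1 became 0.07 and Id3 0.03 against flox alone, Id1 0.01 in the numbered series, and Bambi 0.00037 without a filter, 0.0037 with the replicate block and 0.11 against flox alone. OMPCre Id3 became 0.02 in the numbered series and Msx1 -0.01 against flox alone, and the mean of Id3 became 0.01 in the numbered series. With total-count scaling the differences tested by permutation became 0.09 for Id1 and 0.12 for Id3 in the AP-2εCre line, and 0.002 for Id3 and 0.06 for Bambi in the mean. That scaling left Id4 at -0.05 in the AP-2εCre line, and at -0.24 in the OMPCre line and -0.14 in the mean, both no longer below the threshold, and brought Msx1 in the AP-2εCre line below it at 0.34. With each library left out, the AP-2εCre values ran from -0.07 to 0.05 for Bambi, -0.19 to 0.04 for Id1 and -0.17 to 0.08 for Id3, the OMPCre values from -0.10 to 0.04 for Bambi and -0.09 to 0.14 for Msx1, and the mean of Bambi from -0.05 to 0.02. Of 210 fold changes under alternatives other than leaving out a library, 9 turned, and of 336 with a library left out, 16 turned. These cover the 9 genes in both cKO comparisons and their mean, with only Skil and Id4 for Het against flox, and the difference of the lines was not counted.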

Other observations

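The library whose labels name both an AP-2εCre Het replicate and the Smad4 flox allele entered no comparison. It held 19.7 CPM of Id1, 51.6 of Id2, 39.7 of Id3, 42.8 of Id4, 12.4 of Msx1 and 5.0 of Msx2. Skil stood at 58.8, Ski at 134 and Bambi at 15.3 CPM. Smad4 stood at 87.2, Tfap2e at 6.81 and Omp at 411 CPM in it.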
